A study of Mus musculus with 2 samples.

Results

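The bitter taste receptors of the mouse, the *Tas2r* family, were read from the deposited gene table by taking each row whose gene symbol begins with *Tas2r*. The rule found 35 of the 18498 rows, each with a symbol of its own. The table compares 1 RNA-sequencing library of the circumvallate papillae (CvP), the large taste papilla region at the back of the tongue, with 1 library of tongue epithelium that carries no papillae (Epi). Both were made from male C57BL/6J mice, 12 to 30 weeks old, on normal chow, and the labels name no treatment and no engineered allele for either tissue. RNA of at least 20 mice was pooled per tissue before poly(A) libraries were prepared and read single-end at 75 bp. With 1 library per tissue there was no replicate, each difference is one between a pair of libraries, and no test between tissues was possible.

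Bitter receptors are G protein-coupled receptors carried by type II taste cells, and each one answers to its own range of bitter compounds. Binding frees the taste G protein gustducin and activates phospholipase C, whose product opens calcium stores. The calcium opens the cation channel TRPM5, and the cell then releases ATP onto the gustatory nerve.

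Levels are given in RPKM, the reads of a gene per kilobase of its length, scaled to the number of mapped reads in the library, so that genes of different length can be set side by side. In the rows of 0.1 kb, 1 read was worth 0.352 RPKM for the CvP library and 0.359 for the Epi library, which put them at 28375734 and 27892847 mapped reads. Of the 35 rows, 34 coincided with the annotated coding sequence of the receptor, stop codon included, and the row of *Tas2r119* was 1 base longer. All 35 receptors are intronless over their coding part, of 882 to 1044 bases. With that length, 36 of the 38 values above 0 came out within 0.2 of a whole read, and with the length listed in the table, which is longer in 23 rows, 26 did, so reads were taken over the coding length. The floor of 3 reads then stood between 0.103 and 0.122 RPKM in the Epi.

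The coding starts of the 3 receptors with the highest CvP level and the 3 with the lowest are printed to show the members at both ends of the range. They are the first 60 coding bases on NCBI37/mm9, read 5′ to 3′ on the strand of the gene, with the start codon in capitals.
Tas2r118, chr6:23920001-23920060, minus strand: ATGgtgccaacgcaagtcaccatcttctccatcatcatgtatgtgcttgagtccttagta
Tas2r107, chr6:131610043-131610102, minus strand: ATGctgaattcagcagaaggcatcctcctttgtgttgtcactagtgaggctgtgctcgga
Tas2r126, chr6:42384534-42384593, plus strand: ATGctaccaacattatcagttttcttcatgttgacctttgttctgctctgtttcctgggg
Tas2r140, chr6:133005752-133005811, minus strand: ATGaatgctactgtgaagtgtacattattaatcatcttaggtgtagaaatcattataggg
Tas2r114, chr6:131640022-131640081, minus strand: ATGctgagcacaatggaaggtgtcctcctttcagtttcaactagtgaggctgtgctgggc
Tas2r122, chr6:132661887-132661946, minus strand: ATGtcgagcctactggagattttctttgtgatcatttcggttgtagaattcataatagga

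All 35 receptors had a CvP value above 0, as did 95.2% of all rows. In the Epi, 3 of the 35 had a value above 0, where 88.1% of all rows did. The CvP levels ran from 0.07 to 23.5 RPKM, with a median of 3.56 and quartiles of 2.09 and 4.47. At least 1 RPKM was reached by 32 of the 35, and by 66.7% of all rows. Most of the family lay around a few RPKM, with 25 members within 2-fold of the median. Added up, the 35 receptors came to 139 RPKM in the CvP against 0.12 RPKM in the Epi, a ratio of 1160 with a 95% Clopper-Pearson interval of 409 to 5810. Such intervals cover counting error alone, not the difference between animals or library preparations. In bulk tissue, fewer cells of a type and less RNA per cell cannot be told apart.

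The CvP/Epi ratio was above 3, the limit used in the study, for 35 of 35 receptors and for 25.4% of all rows, where a row at 0 in the Epi is counted as past the limit whatever its CvP level. Of the 35, 32 passed in that way, among them *Tas2r122*, whose 2 CvP reads allow no ratio, and 3 passed with an Epi read. No receptor had a ratio below the inverse of that limit, which 4.58% of all rows had. The 95% interval of the ratio lay above 1 for 34 receptors, all but *Tas2r122*, and for 57% of all rows. An Epi value of 0 beside a CvP value above 0 was held by 32 receptors and by 9.42% of all rows. The same was counted among the 6823 rows with 1 to 10 RPKM in the CvP, where 28 of the 31 receptors in that range were at 0 in the Epi, against 2.77% of the rows, and all 31 had a ratio above 3, against 22.9%. The study's second limit, a CvP level above 10 RPKM, was passed together with the first by 2.35% of all rows and by 1 receptor, *Tas2r118*. On the log2(RPKM + 0.1) scale the median difference between CvP and Epi was 5.19 for the 35 receptors and 0.49 for all rows. For the 10363 rows with at least 1 RPKM in both libraries the median ratio was 1.31, or 0.39 on the log2 scale, and the receptors' shift stands beside that one.

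**Figure D1:**
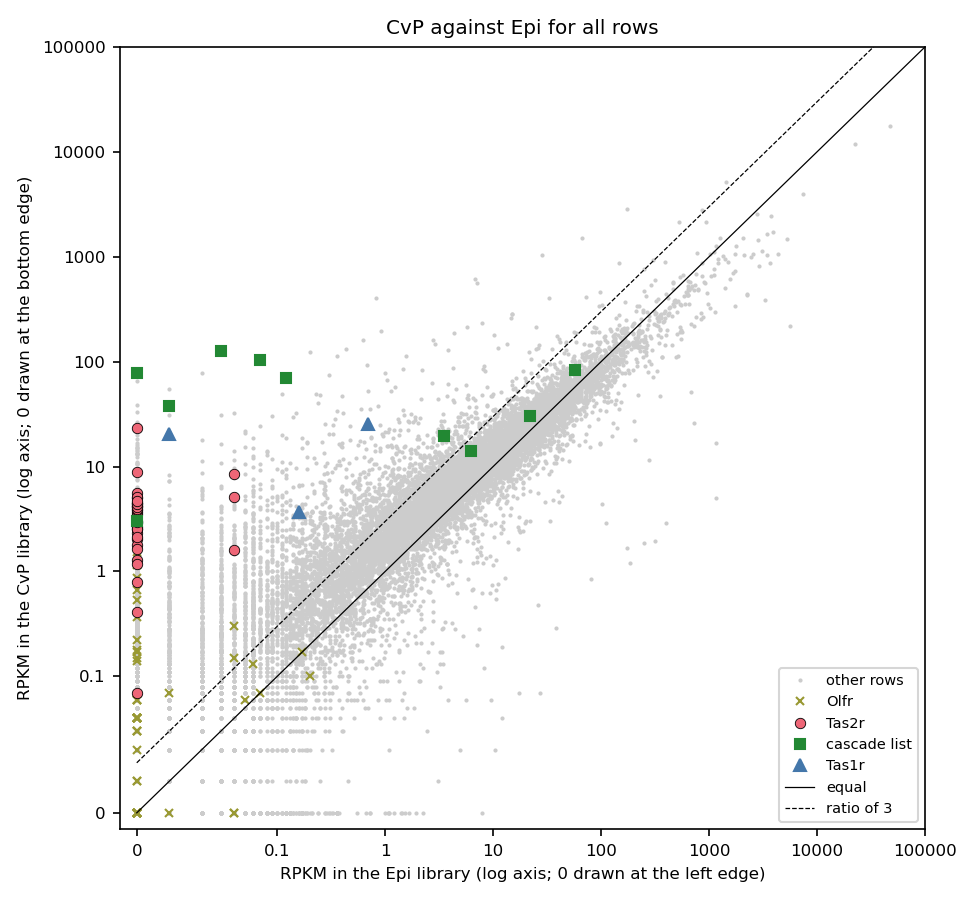
Each point is 1 row of the table, with its RPKM in the Epi on the x axis and in the CvP on the y axis, both logarithmic with 0 drawn at the edge. The *Tas2r* receptors (red circles) stand at the left edge, 32 of 35 at an Epi value of 0, above nearly all olfactory receptor rows (*Olfr*, crosses) and below most genes of the transduction cascade (green squares).

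*Tas2r118*, the mouse counterpart of the human salicin receptor TAS2R16, had the highest level of the family. It stood at 23.5 RPKM in the CvP (600 reads, 95% Poisson interval 21.7 to 25.5) and at 0 in the Epi. Against the Epi floor of 3 reads its level was 197-fold higher in the CvP, and the exact 95% lower limit of the ratio was 159. It was 2.64 times the level of the receptor ranked next and held 16.9% of the family's summed CvP level, so that 116 RPKM remained without it. Among all rows it ranked at place 2449 in the CvP.

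*Tas2r107* followed with 8.90 RPKM in the CvP (234 reads) and 0 in the Epi. Its level was 76.7 times the Epi floor, with an exact lower limit of the ratio of 61.9. *Tas2r126*, the counterpart of human TAS2R41, had 8.44 RPKM in the CvP (222 reads) and 0.04 RPKM in the Epi (1 read), a ratio of 211 with an interval of 38.8 to 8658. The interval of *Tas2r107*, 7.79 to 10.1 RPKM, overlapped that of *Tas2r126*, 7.37 to 9.63 RPKM, so that their order is not resolved. *Tas2r108*, which answers to denatonium, the standard bitter stimulus of taste studies, had 5.60 RPKM in the CvP against 0 in the Epi, with an interval of 4.71 to 6.60 RPKM that lay under that of *Tas2r126*.

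Down the whole order of 35 levels, 2 of the 34 pairs of neighbours had intervals that lay apart, *Tas2r118* over *Tas2r107* and *Tas2r126* over *Tas2r108*. Against the family median of 3.56 RPKM the order was clearer at its ends. The intervals of 11 receptors lay above the median, those of 14 lay below it, and 10 held it. The 5 highest receptors together made up 37.1% of the summed CvP level. The 23 rows with a listed length longer than the coding sequence had a CvP median of 3.92 RPKM, from 1.29 to 23.5. The 12 rows with equal lengths had a median of 2.42 RPKM, from 0.07 to 5.14. The part of the listed length in the order of the receptors was not tested.

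The lowest level was that of *Tas2r122*, at 0.07 RPKM in the CvP against 0 in the Epi. Its 2 reads are under the floor in both libraries, and it was given no ratio. *Tas2r114* had 0.41 RPKM in the CvP (11 reads, interval 0.21 to 0.75) and 0 in the Epi. That was 3.55 times the Epi floor, with an exact lower limit of the ratio of 2.47. *Tas2r140* had 0.79 RPKM (21 reads, interval 0.49 to 1.20) and 0 in the Epi. Its level was 6.90 times the Epi floor, with an exact lower limit of 5.12. These 3 were the receptors under 1 RPKM. The other 29 with no Epi read exceeded the floor of 3 Epi reads more than 10-fold, and over all 31 receptors so compared the median was 30.1-fold. Exact 95% lower limits of the ratio were smaller, 8.05 for *Tas2r144* and 9.11 for *Tas2r136*.

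**Figure D2:**
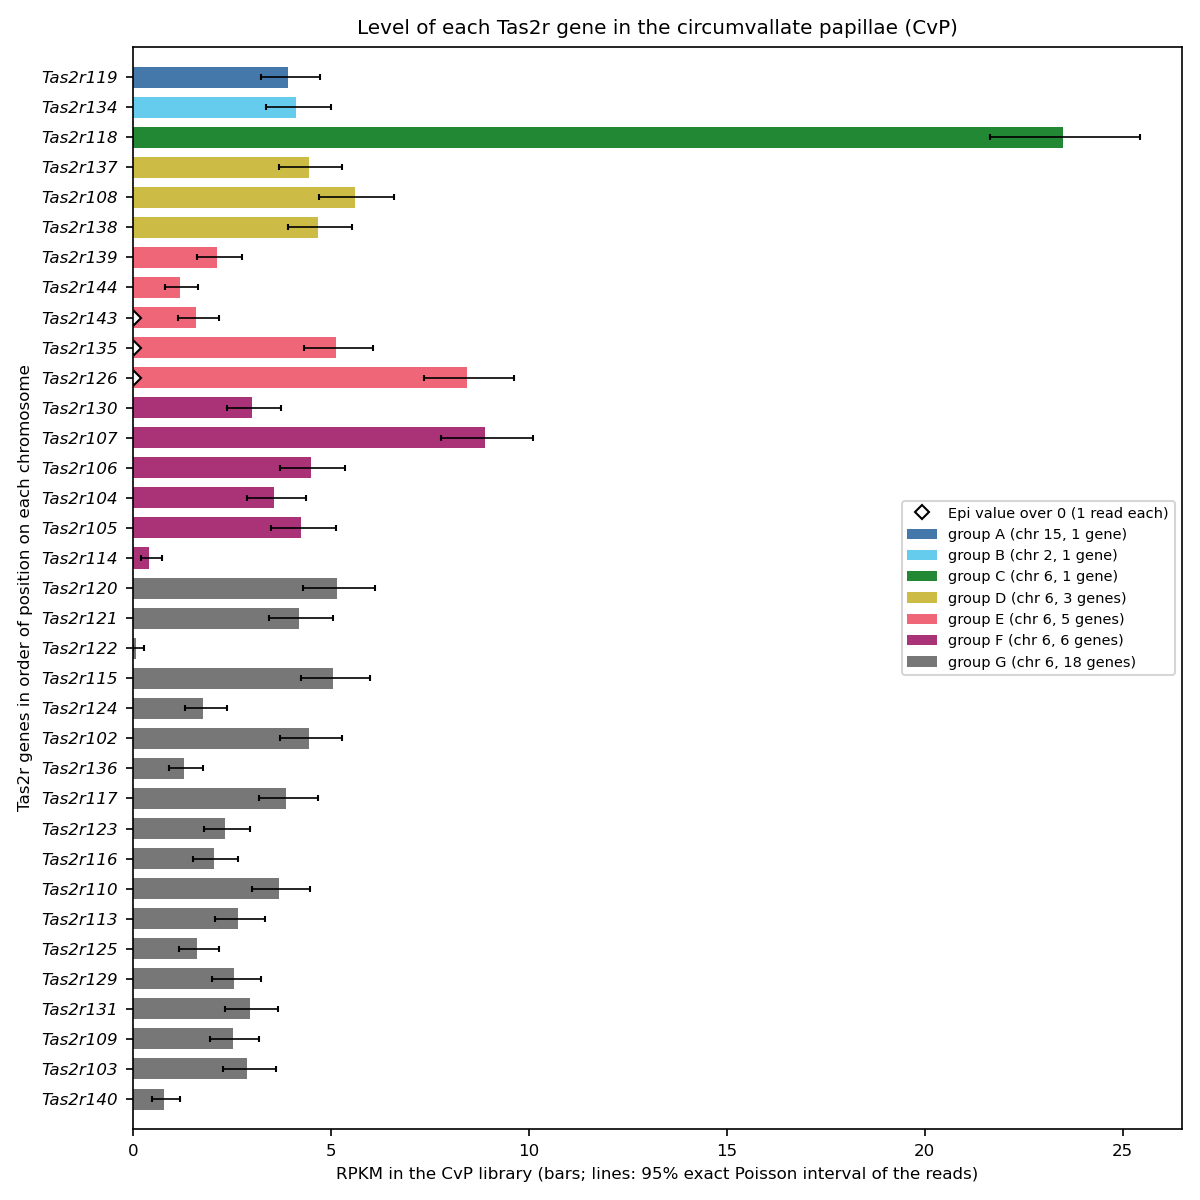
Bars give the CvP level of each receptor in RPKM, in order of position, coloured by the group of neighbouring genes it belongs to, with the 95% exact Poisson interval of its reads. Open diamonds mark the Epi value of the 3 receptors with an Epi read; *Tas2r118* stands at 23.5 RPKM, and the rest lie at or under 8.90 RPKM.

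The receptors lie at 6 places in the genome when rows less than 1 Mb apart are joined, and 33 of the 35 are on chromosome 6. Group A is *Tas2r119* alone, at chr15:32107044-32108049 on NCBI37/mm9, and group B is *Tas2r134* alone, at chr2:51483031-51483927. *Tas2r119*, the counterpart of human TAS2R1, had 3.92 RPKM in the CvP (interval 3.23 to 4.72), and *Tas2r134* had 4.12 RPKM (interval 3.37 to 4.99). Both were at 0 in the Epi. The receptors away from chromosome 6 therefore had levels near the family median. Group C is *Tas2r118*, alone at chr6:23919161-23920060.

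Group D holds 3 receptors over 122 kb, at chr6:40441237-40563309. *Tas2r137*, the counterpart of human TAS2R3, had 4.44 RPKM in the CvP. *Tas2r108*, the counterpart of TAS2R4, is the one of 5.60 RPKM given above. *Tas2r138*, the counterpart of TAS2R38 that senses phenylthiocarbamide in people, had 4.67 RPKM. All 3 were at 0 in the Epi and above the family median with their whole interval. Of the 4 rows of other genes between them, the highest were *Olfr461* with 1.16 RPKM in the CvP against 0 in the Epi, *Clec5a* with 0.57 and 0.04, and *Olfr460* with 0.04 and 0.

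Group E holds 5 receptors over 295 kb, at chr6:42090935-42385460, all on the plus strand. *Tas2r139*, the counterpart of human TAS2R39, had 2.13 RPKM in the CvP, and *Tas2r144*, that of TAS2R40, had 1.18 RPKM, both with 0 in the Epi. The remaining 3 members, *Tas2r143*, *Tas2r135* and *Tas2r126*, follow each other on chr6:42350237-42385460, with 4409 and 28040 bases between them. They were the receptors with an Epi value above 0, each at 0.04 RPKM, worth 1 read. *Tas2r143* had 1.60 RPKM in the CvP, a ratio of 40 with an interval of 6.66 to 1591. *Tas2r135*, the counterpart of TAS2R60, had 5.14 RPKM, a ratio of 129 with an interval of 24.5 to 5513. Their levels differed within a short stretch, from 1.60 RPKM for *Tas2r143* to 8.44 RPKM for *Tas2r126*, with intervals that lay apart. All 7 rows of other genes within group E had reads in the Epi. *Epha1*, a receptor tyrosine kinase, had 57.0 RPKM in the CvP against 58.3 in the Epi. *Zyx*, a focal adhesion protein, had 16.3 and 6.96 RPKM, and *Casp2*, a caspase, had 15.7 and 11.7 RPKM.

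The other 24 receptors lie at chr6:131579910-133005811, the distal cluster of the chromosome, where a stretch of 966893 bases with no receptor parts them into groups F and G. Group F has 6 receptors over 60.2 kb, all on the minus strand, with a median of 3.91 RPKM in the CvP against 0 in the Epi throughout. In their order on the chromosome, *Tas2r130* had 3.0 RPKM, *Tas2r107* had the 8.90 RPKM given above, *Tas2r106* had 4.49 RPKM and *Tas2r104* had 3.56 RPKM. *Tas2r105*, the cycloheximide receptor, had 4.25 RPKM (109 reads), 35.7 times the Epi floor, with an exact lower limit of the ratio of 28.6. *Tas2r114*, the last of the group, lies 1670 bases past *Tas2r105* and had 0.41 RPKM, so that a level above and one far under the median stood side by side.

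Group G has 18 receptors over 399 kb, at chr6:132606975-133005811, 10 on the plus strand and 8 on the minus strand. Their CvP median was 2.61 RPKM, and all were at 0 in the Epi. The highest were *Tas2r120* with 5.16 RPKM and *Tas2r115* with 5.06 RPKM, and *Tas2r102* followed with 4.45 RPKM, *Tas2r121* with 4.19, *Tas2r117* with 3.87 and *Tas2r110* with 3.69. Levels between 2 and 3 RPKM were those of *Tas2r131* (2.95), *Tas2r103* (2.88), *Tas2r113* (2.65), *Tas2r129* (2.56), *Tas2r109* (2.52), *Tas2r123* (2.32) and *Tas2r116* (2.04). Under them came *Tas2r124* with 1.78 RPKM, *Tas2r125* with 1.62, *Tas2r136* with 1.29, *Tas2r140* with 0.79 and *Tas2r122* with 0.07. As deposited, no member of group G exceeded 5.16 RPKM, and the sum of the 18 was 49.9 RPKM, but the level of *Tas2r117* depends on how reads from repeated stretches were counted and could be 7.10 RPKM, as given with its sequence. *Tas2r131* lies inside the extent of the *Tas2r129* gene on the opposite strand, in an intron of one of its transcripts, and the counting is not stated to have used strand. No coding sequence of a receptor overlapped an annotated exon of another gene, and exons of the receptors outside the coding sequence were not checked.

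The rows of other genes between groups F and G were low in the CvP. *A630073D07Rik* had 1.09 RPKM in the CvP against 0.15 in the Epi, *Gm4736* had 0.04 and 1.22, and *Prp2*, a proline-rich salivary protein gene, had 0.04 and 0. The highest of the 6 rows, at 1.09 RPKM, thus lay under the CvP median of both groups. In group E the neighbours named, the highest there, were above every receptor of the group. Of the neighbours not named there, *Gstk1* was also above them, at 12.6 RPKM. *Tmem139* (3.10 RPKM), *Clcn1* (0.19) and *Fam131b* (0.07) were not.

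By base identity over the coding sequence the 35 receptors were far apart. The 595 pairs ranged from 52.5% to 86.3% identity, with a median of 58.3%, and 2 pairs exceeded 80%. Within group F, *Tas2r104* and *Tas2r105* shared 74.4%, and *Tas2r105* and *Tas2r114* shared 73.3% although their levels were 4.25 and 0.41 RPKM. *Tas2r134* on chromosome 2 was closest to *Tas2r143* on chromosome 6, at 70.1%. *Tas2r118* was at most 60.8% identical to any other member.

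**Figure D3:**
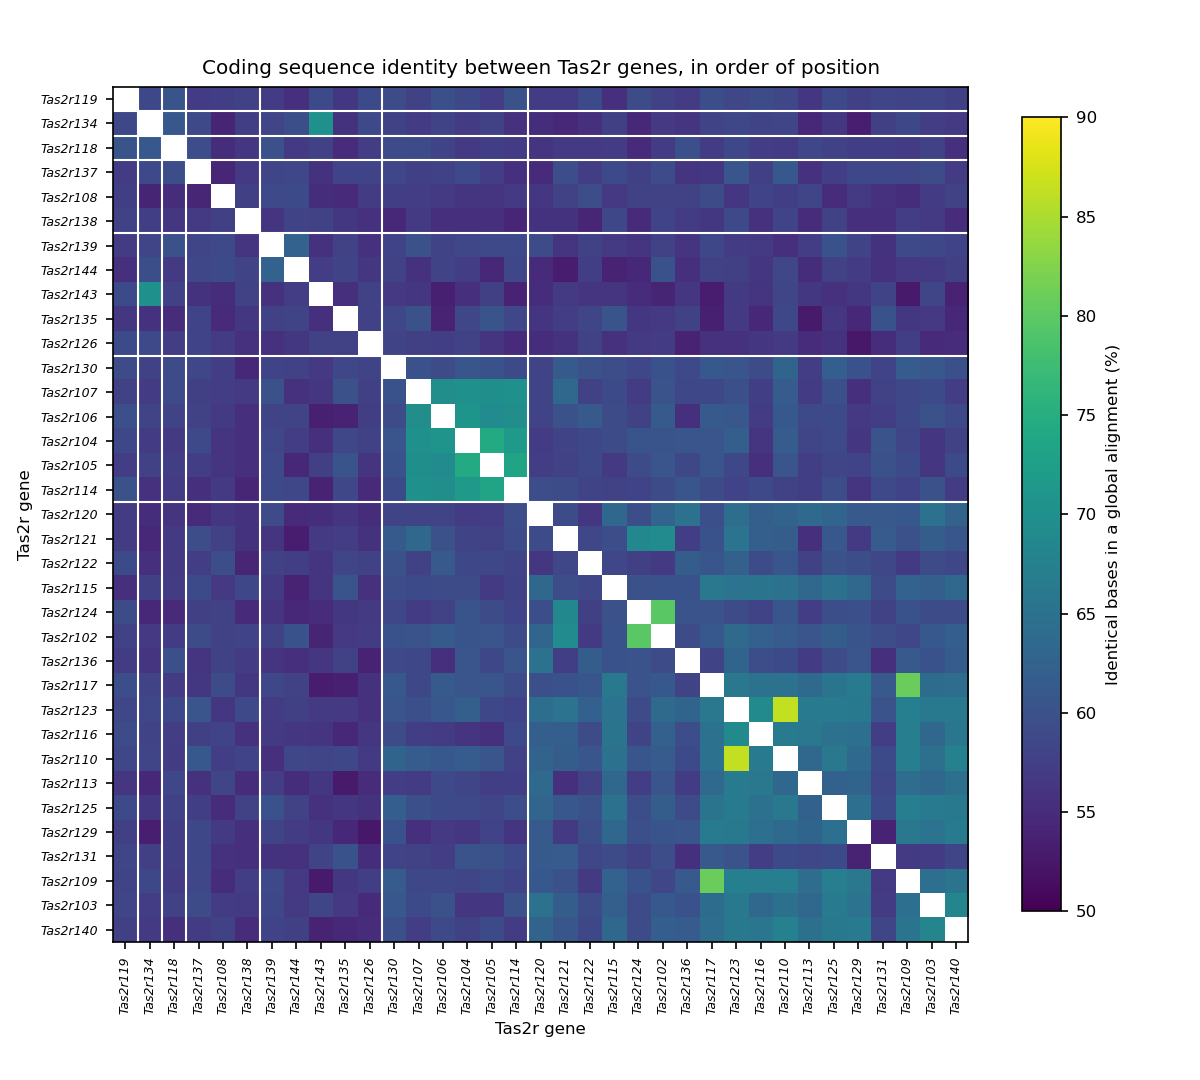
Colour gives the percentage of identical bases in a global alignment of each pair of coding sequences, with receptors in order of position and white lines between groups A to G. Blocks of higher identity follow the groups, in group F without *Tas2r130* and in part of group G, where *Tas2r131* and *Tas2r122* stay lower. The brightest pairs are *Tas2r123* with *Tas2r110* and *Tas2r117* with *Tas2r109*.

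Near-identical stretches matter here because a read of 75 bases from them fits several places in the genome, and how such reads were counted is not given in the sources used here. For 31 of the 35 receptors no window of 75 bases recurred elsewhere in the genome with up to 2 mismatches. The exceptions were *Tas2r117*, with 418 of 919 windows (45.5%), *Tas2r123* and *Tas2r110*, with 90 of 928 windows (9.70%) each, and *Tas2r109*, with 76 of 877 (8.67%). Of the 418 windows of *Tas2r117*, 75 recurred in *Tas2r109*. The rest recurred only at places on chromosome 6 outside the *Tas2r* rows, of which *Tas2r117* matched 3. The longest identical run of each pair is printed in capitals with 15 bases on either side, on NCBI37/mm9 and on the strand of the gene. It covers coding bases 596 to 715 of *Tas2r123* and *Tas2r110*, bases 567 to 643 of *Tas2r117* and bases 570 to 646 of *Tas2r109*.
Tas2r123, chr6:132797740-132797889, plus strand: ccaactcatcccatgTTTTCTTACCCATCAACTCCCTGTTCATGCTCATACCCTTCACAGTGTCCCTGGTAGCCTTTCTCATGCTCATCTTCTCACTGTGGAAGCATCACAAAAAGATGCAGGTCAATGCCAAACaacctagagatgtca
Tas2r110, chr6:132818606-132818755, plus strand: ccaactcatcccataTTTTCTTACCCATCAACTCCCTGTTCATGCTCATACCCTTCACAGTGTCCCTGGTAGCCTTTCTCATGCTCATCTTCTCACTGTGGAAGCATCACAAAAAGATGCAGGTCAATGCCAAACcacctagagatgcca
Tas2r117, chr6:132753470-132753576, plus strand: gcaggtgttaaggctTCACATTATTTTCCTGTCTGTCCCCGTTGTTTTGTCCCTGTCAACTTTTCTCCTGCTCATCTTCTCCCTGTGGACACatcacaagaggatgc
Tas2r109, chr6:132930323-132930429, minus strand: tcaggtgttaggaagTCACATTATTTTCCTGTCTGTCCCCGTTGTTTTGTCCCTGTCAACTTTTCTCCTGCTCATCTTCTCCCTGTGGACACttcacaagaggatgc

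Within the first pair, 86.3% identical over the coding sequence, *Tas2r110* had 3.69 RPKM in the CvP (interval 3.02 to 4.47) and *Tas2r123* had 2.32 RPKM (interval 1.80 to 2.95). The level of *Tas2r110* was the higher, with intervals apart. In the second pair, 80.9% identical, *Tas2r117* had 3.87 RPKM (interval 3.18 to 4.67) and *Tas2r109* had 2.52 RPKM (interval 1.96 to 3.19), which overlapped. The deposited levels may already leave out reads from windows shared with other places in the genome. In that case, with the same reads over the unshared windows alone, *Tas2r117* would stand at 7.10 RPKM. It would move from rank 16 to rank 4 of the family. The other 3 would move little, *Tas2r110* to 4.09 RPKM, *Tas2r109* to 2.76 and *Tas2r123* to 2.57. Had reads from shared windows been counted, these values would not apply, and no reads were removed here. *Tas2r124* and *Tas2r102*, 79.8% identical, shared no such window and had levels of 1.78 RPKM (interval 1.31 to 2.37) and 4.45 RPKM (interval 3.73 to 5.28). Their intervals lay apart.

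Upstream sequence was available for 31 of the 35 receptors as RefSeq windows on GRCm38.p6, 250 bases before to 50 after the gene start. In 30 of the 31 the coding sequence begins right at that start, so that these windows are placed by the start codon and not by a mapped transcription start. They were searched on both strands for TATAAA, a core promoter motif, and for ATGCAAA, part of the octamer bound by POU factors such as POU2F3 of type II cells. TATAAA was found in 10 receptor windows (32.3%) and in 13.6% of all 32851 windows. ATGCAAA was found in 12 receptor windows (38.7%) and in 4.63% of all windows. The receptor windows are rich in A and T, with a median of 63% against 47.3% over all windows. Among the 2028 windows with at least 63% A and T, TATAAA was found in 46.3% and ATGCAAA in 9.96%. A match is a run of letters, not a measured binding site.

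The stretches around the match are printed for all 12 receptors that hold it, from the highest CvP level to the lowest, to show the letters next to it. They are from RefSeq on GRCm38.p6, on the strand of the gene, with the match in capitals, which reads TTTGCAT where it lies on the opposite strand.
Tas2r118, chr6:23970165-23970195, minus strand: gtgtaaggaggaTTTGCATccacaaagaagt
Tas2r107, chr6:131660367-131660397, minus strand: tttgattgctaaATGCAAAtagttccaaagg
Tas2r126, chr6:42434330-42434360, plus strand: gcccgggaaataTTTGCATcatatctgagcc
Tas2r108, chr6:40493435-40493465, plus strand: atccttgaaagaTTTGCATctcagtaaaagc
Tas2r135, chr6:42405375-42405405, plus strand: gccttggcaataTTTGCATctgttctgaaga
Tas2r138, chr6:40613541-40613560, minus strand: tTTTGCATcatccaagaggt
Tas2r102, chr6:132761899-132761929, plus strand: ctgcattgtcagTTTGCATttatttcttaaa
Tas2r137, chr6:40491035-40491065, plus strand: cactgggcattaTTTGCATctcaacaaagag
Tas2r134, chr2:51627360-51627390, plus strand: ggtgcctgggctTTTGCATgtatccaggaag
Tas2r119, chr15:32177039-32177061, plus strand: aaaaATGCAAAagctgtcataag
Tas2r139, chr6:42140730-42140760, plus strand: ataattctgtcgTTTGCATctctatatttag
Tas2r144, chr6:42215160-42215190, plus strand: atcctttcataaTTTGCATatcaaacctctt

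In 10 of the 12 the match lay on the strand opposite to the gene, and it ended 117 to 243 bases before the coding start, with a median of 186. In 7 of the 12 the base after ATGCAAA was T, which completes the octamer. The receptors with and without the motif were split by position. Of the 11 with a window in groups A to E, 10 held ATGCAAA, all but *Tas2r143*. Of the 20 in the distal cluster, groups F and G, 2 held it, *Tas2r107* and *Tas2r102*. The CvP levels of the 10 ran from 1.18 to 23.5 RPKM with a median of 4.56, and *Tas2r143* had 1.60 RPKM. In the distal cluster the 2 receptors with the motif had 8.90 and 4.45 RPKM, and the 18 without it ran from 0.07 to 5.16 RPKM with a median of 2.77. The ranges overlapped in both places, and no test was made.

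**Figure D4:**
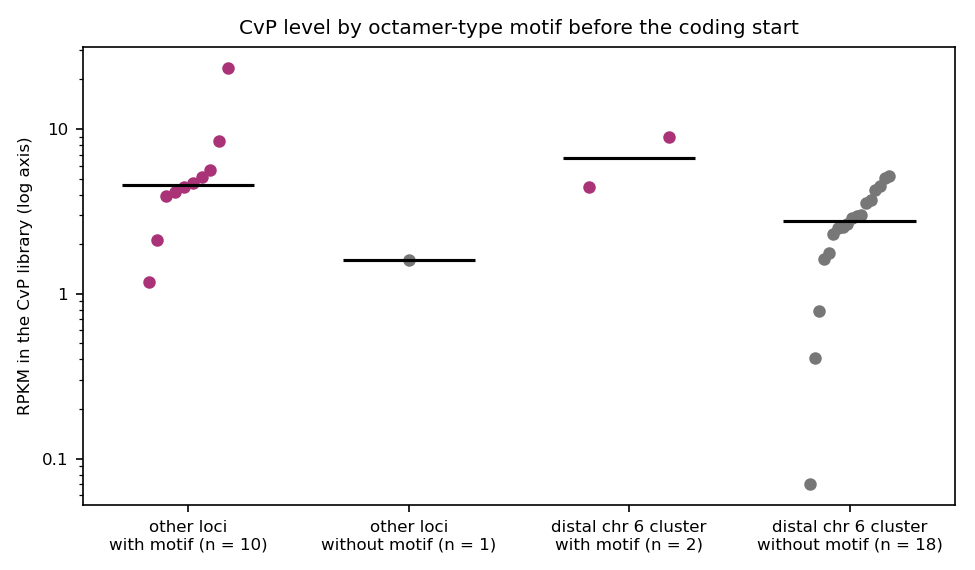
Points give the CvP level of each receptor in RPKM on a logarithmic axis, by place (groups A to E, or the distal cluster) and by whether the window before the coding start holds ATGCAAA, with the median as a line. The 10 receptors with the motif in groups A to E have a median of 4.56 RPKM and the 18 without it in the distal cluster 2.77 RPKM, with overlapping ranges.

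The genes that act after the receptor were read from a list of 12, of which 10 had a row, all but *Calhm3* and *Rgs21*. All 10 were higher in the CvP, 7 with a ratio above 3 and 6 also above 10 RPKM. Of all rows, 25.4% had a ratio above 3 and 2.35% passed both limits, and the median row was itself higher in the CvP, by 0.49 on the log2 scale. *Gnat3*, the gustducin alpha subunit, had 127 RPKM in the CvP against 0.03 in the Epi (1 read), a ratio of 4237 with an interval of 820 to 180539. The summed level of the 35 receptors was 1.10 times that of *Gnat3* alone. The G protein subunits that pair with it were *Gnb3*, at 104 RPKM in the CvP against 0.07 in the Epi, and *Gng13*, at 77.4 and 0. Against the floor of 3 Epi reads *Gng13* was 517-fold higher, with an exact lower limit of the ratio of 420.

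The enzyme and channel steps ranged from levels above every receptor, for *Plcb2* and *Trpm5*, to one under the receptor median, for *Calhm1*. *Plcb2*, the phospholipase C of taste cells, had 70.0 RPKM in the CvP against 0.12 in the Epi, a ratio of 583 with an interval of 369 to 1015. *Trpm5* had 37.8 RPKM and 0.01 (1 read). *Calhm1*, a subunit of the ATP release channel, had 3.03 RPKM and 0. It stood at 29.5 times the Epi floor, with an exact lower limit of the ratio of 23.5. *Pou2f3*, the transcription factor that type II cells need, had 19.5 RPKM in the CvP against 3.49 in the Epi, a ratio of 5.59 with an interval of 4.89 to 6.41.

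Of the cascade, 3 genes had a high level in both tissues. *Gnb1*, a widely used G protein beta subunit, had 83.8 RPKM in the CvP against 57.3 in the Epi. Its ratio was 1.46, with limits of 1.41 and 1.52. *Itpr3*, the IP3 receptor, had 30.1 and 21.9 RPKM, a ratio of 1.37 with an interval of 1.33 to 1.42. *Trpm4*, a channel related to *Trpm5*, had 14.1 and 6.25 RPKM. The median ratio of 1.31 given above stands beside these values.

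**Figure D5:**
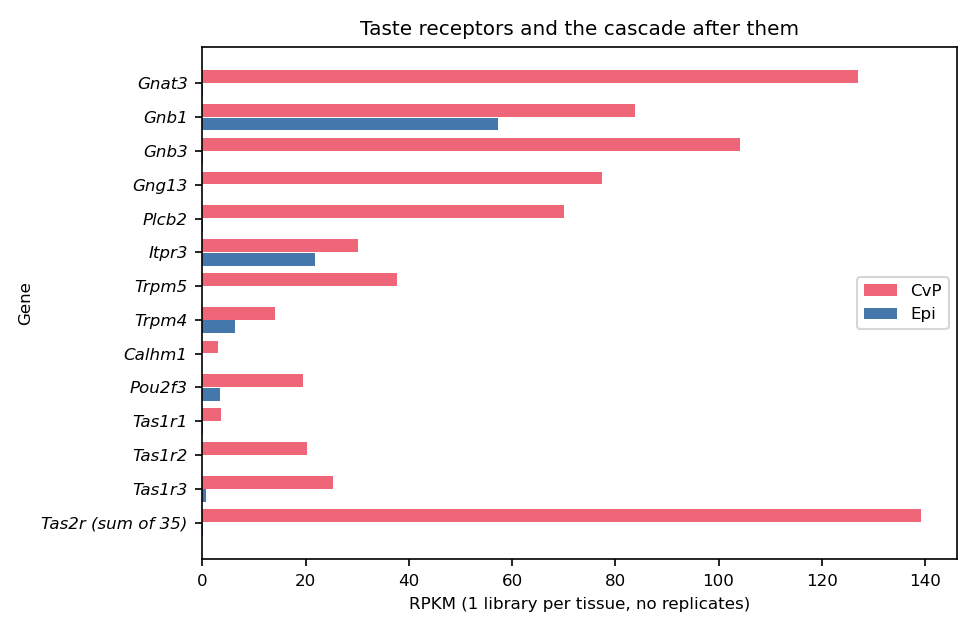
Bars give the RPKM of each gene of the cascade list with a row, of the *Tas1r* genes and of the *Tas2r* family summed, in the CvP (red) and the Epi (blue), 1 library each. The summed *Tas2r* level, 139 RPKM, stands beside that of *Gnat3*, 127 RPKM, and *Gnb1*, *Itpr3*, *Trpm4* and *Pou2f3* have a visible Epi bar.

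The sweet and umami receptors, the *Tas1r* family of 3 genes, had 2 genes near the level of *Tas2r118* and 1 near the middle of the bitter receptors. *Tas1r3*, the subunit common to sweet and umami receptors, had 25.3 RPKM in the CvP against 0.70 in the Epi. *Tas1r2*, the sweet subunit, had 20.3 and 0.01 RPKM, and *Tas1r1*, the umami subunit, had 3.69 and 0.16 RPKM. Their summed CvP level was 49.3 RPKM, and *Tas2r118* alone of the bitter receptors stood between *Tas1r2* and *Tas1r3*. All 3 had at least 1 read in the Epi, as did 3 of the 35 bitter receptors.

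Other chemoreceptor families in the table served as a comparison at low level. Of 59 olfactory receptor rows (*Olfr*), 40 had a CvP value above 0 and 2 reached 1 RPKM (3.39%), with a median of 0.04 and a highest value of 1.53 RPKM, against 32 of 35 bitter receptors. The 8 *Vmn1r* rows had a median of 0.055 and the 26 *Vmn2r* rows one of 0.03 RPKM. The ratio was above 3 for 35 of the 59 *Olfr* rows (59.3%), a share between that of all rows and that of the bitter receptors.

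A list of 6 genes for the transport of chemoreceptors to the cell surface had 4 rows, for all but *Rtp1* and *Rtp2*. *Rtp4*, named for that role, had 4.95 RPKM in the CvP against 1.34 in the Epi, a ratio of 3.69 with an interval of 2.75 to 4.99. *Reep2* had 0.37 and 0.02 RPKM, *Reep1* had 0.89 and 1.12, and *Rtp3* was at 0 in both.

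The labelled tissues were set against lists of cell type markers. All 7 type II cell markers were higher in the CvP, summing to 365 RPKM there and 25.6 in the Epi, where *Gng13* and *Calhm1* were at 0. All 8 type III cell markers were higher too, with sums of 112 and 0.46 RPKM, and *Pkd2l1*, *Ddc*, *Snap25*, *Ncam1* and *Otop1* at 0 in the Epi. Of the 4 type I cell markers 3 were higher, with sums of 485 and 80.6 RPKM and *Kcnj1* at 0 in the Epi. Markers of other cell types differed between the tissues as well. The 5 immune cell markers, all higher in the CvP, summed to 150 and 5.54 RPKM, and the 5 nerve and glia markers, all higher, to 3.63 and 0.38 RPKM, with *Cd3e* and *Nefl* at 0 in the Epi. The 7 keratinized epithelium markers summed to 33887 RPKM in the CvP against 87949 in the Epi, with 6 higher in the Epi. The 5 skeletal muscle markers, all higher in the Epi, summed to 2.84 and 42.6 RPKM. Of 8 gland markers 5 had a row, 3 of them higher in the CvP, with sums of 22.2 and 396 RPKM. No keratinized epithelium, muscle or gland marker was at 0 in either library. The immune sum in the CvP came largely from *Lyz2* (132 RPKM) and the type I sum from *Glul* (416 RPKM). In the Epi, *Itpr3* (21.9 RPKM) made up most of the type II sum and *Lipf* (313 RPKM) most of the gland sum. The median of all rows was higher in the CvP too, by 0.49 on the log2 scale. The part of these cell types in the levels of the bitter receptors was not tested.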

How the data were processed

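The libraries were 1 pooled poly(A) RNA sample per tissue. According to the deposited files and the methods, the authors mapped reads to NCBI37/mm9 with Bowtie 0.12.7 and gave RPKM per gene with ERANGE. The authors' column of CvP/Epi ratios holds their own comparison and was not used. No column of another sample was present.

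Ratios used the deposited RPKM with no pseudocount, and a row at 0 in the Epi passed each ratio limit. Reads were RPKM times length times mapped reads, where mapped reads came from the steps of 163 rows of 0.1 kb. For rows other than *Tas2r* the length was the listed one or, where that was shorter, the longest GENCODE M1 coding transcript. Receptors at 0 in the Epi were set against 3 Epi reads, those with 1 to 3 Epi reads were given a ratio with its interval. The fold over 3 Epi reads leaves out counting error in the CvP, which the exact lower limit includes. Levels have exact Poisson and ratios exact Clopper-Pearson intervals at 95%, for counting error only.

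Coding sequences were read from the NCBI37/mm9 genome, aligned pairwise with Biopython 1.88 and searched against it with blastn 2.17.0 in windows of 75 bases. Genes named were all *Tas2r* rows, the cascade, *Tas1r* and transport lists, and the 3 highest other rows within each cluster. The members and lists were chosen with earlier results of these data known. The alternative with the unshared length was added after seeing the data. On simulated data for the CvP against the Epi, depth was recovered to within 0.0877% in 163 simulated rows, and the true ratio lay inside 94.9% of 1000 intervals. Those were drawn with higher Epi counts and smaller ratios than the receptors had, so coverage at the receptors' counts was not checked. The scripts ran on Python 3.11.15 with pandas 2.3.3, scipy 1.17.1, numpy 2.4.6 and, for plots, matplotlib 3.10.9.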

Additional observations from a re-analysis of the deposited data

How the results depend on the processing

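Of 35 alternatives set for the results, 25 were classed as keeping the result, 10 as moving it, and none as reversing a direction. A result classed as kept could still change in value, as the counts and ratios below show. The count of receptors with a ratio above 3, 35, came to 3 when rows at 0 in the Epi were left out, since 3 receptors then remained, and to 34 and 27 with a pseudocount of 0.1 and 1. The 3 receptors with an Epi value above 0 became 0 with each stricter rule, more than 3 reads, at least 0.1 RPKM and at least 1 RPKM. The median log2 difference of 5.19 became 8.21 and 2.19 when 0.01 or 1 took the place of 0.1 as pseudocount. It was 4.80 once the ratios were divided by their median, and with each receptor at 0 set at the floor of 3 reads it came to 4.91. The count above both limits, 1, rose to 7, 18 and 32 with a CvP minimum of 5, 3 and 1 RPKM. The ratio of the summed levels stayed between 884 and 1400, and 34 intervals lay above 1 under each alternative tried. With the unshared length, chosen after seeing the data and not among the 35, *Tas2r117* stood at 7.10 in place of 3.87 RPKM.

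No paired analysis was possible because there was only 1 library per tissue, and no replicate was there to leave out. An Epi level under the floor of 3 reads, about 0.1 RPKM, can give no read at this depth, and a receptor listed at 0 is not shown to be absent. Each tissue was made into a library once, and the share of library preparation in a difference cannot be told apart from that of the tissue.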
